A study of Mus musculus with 6 samples.

Results

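Microglia are the resident macrophages of the brain, and the genes described here are 9 that resting, or homeostatic, microglia are known to express: P2ry12, Tmem119, Csf1r, Sall1, Siglech, Olfml3, Trem2, Tyrobp and Aif1. They were taken by symbol from the authors' deposited table of 48526 genes, each symbol matched 1 row, and all 9 were among the 20101 tested genes. RNA came from cells sorted by YFP and by the DNA stain Hoechst from mouse forebrain without meninges at postnatal day 6, and the labels call these cells oligodendrocyte precursor cells (OPCs), the dividing glia that give rise to myelinating oligodendrocytes. The 3 Ep400 cko samples carried CNP1::Cre, conditional Rosa26stopflox-YFP and conditional Ep400, the gene of a chromatin remodelling ATPase. The 3 ctrl samples carried CNP1::Cre and conditional Rosa26stopflox-YFP without conditional Ep400, so both groups expressed Cre from an oligodendroglial promoter and the same reporter, on a mixed 129SvJ/C57Bl/6J background. The labels call the samples biological replicates and do not say whether animals were pooled. Microglia do not belong to the oligodendroglial lineage, and their transcripts were measured here within the sorted population as a whole.

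Microglia arise from yolk sac progenitors and depend on CSF1R, a receptor tyrosine kinase, for survival. Its ligands are CSF1 and IL-34. TGF-beta and the transcription factors PU.1 and SALL1 maintain their identity. TREM2 and Siglec-H sit at the cell surface and signal through TYROBP (DAP12), an adaptor with an ITAM motif that recruits the kinase SYK, while the ADP receptor P2RY12 steers microglial processes.

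Of the 9 genes, P2ry12 fell and Olfml3 rose in Ep400 cko samples, and 7 did not pass the test (adjusted p under 0.05 in the authors' DESeq2 comparison). Across all tested genes 12.2% passed, 7.64% as higher and 4.61% as lower in Ep400 cko, and a count of 2 among 9 genes does not set these genes apart from that background. Fold changes were negative for 7 genes and positive for 2, and 50.2% of all tested genes had a negative value. The median log2 fold change was -0.32 for the 9 genes and 0.00 for all tested genes. Values per sample are not part of the authors' deposited table, so each gene is given by its mean over the 6 libraries, its fold change and its standard error. That fold change is moderated, meaning pulled towards 0, and is as a rule nearer 0 than the ratio of group means. The p-values are those of the authors' DESeq2 Wald test on 3 against 3 samples. In RNA of a whole sorted population, fewer cells of a type and less RNA per cell cannot be told apart.

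The promoters of the 2 genes that passed in opposite directions, P2ry12 and Olfml3, and of Trem2 and Aif1, 2 of the genes that did not pass, are shown over the 250 bases before their RefSeq start (GRCm38.p6). They lie at chr3:59262986-59263235 (minus strand) for P2ry12, chr3:103738002-103738251 (minus strand) for Olfml3, chr17:48346151-48346400 (plus strand) for Trem2 and chr17:35176053-35176302 (minus strand) for Aif1. Capitals mark GAGGAA or GGAAGT on either strand, 6-base words that belong to the purine-rich core bound by PU.1 and other ETS factors and that overlap each other where both are present in one run.
P2ry12: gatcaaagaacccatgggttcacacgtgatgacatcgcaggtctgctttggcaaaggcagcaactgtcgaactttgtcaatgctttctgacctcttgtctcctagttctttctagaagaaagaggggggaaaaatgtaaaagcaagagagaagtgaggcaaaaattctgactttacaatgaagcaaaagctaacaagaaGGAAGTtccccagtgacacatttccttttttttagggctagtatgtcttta
Olfml3: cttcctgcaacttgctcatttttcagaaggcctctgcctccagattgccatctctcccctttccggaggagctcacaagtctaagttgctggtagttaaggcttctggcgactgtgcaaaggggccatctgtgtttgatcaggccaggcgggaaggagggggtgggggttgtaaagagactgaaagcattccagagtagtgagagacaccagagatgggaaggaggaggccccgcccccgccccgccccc
Trem2: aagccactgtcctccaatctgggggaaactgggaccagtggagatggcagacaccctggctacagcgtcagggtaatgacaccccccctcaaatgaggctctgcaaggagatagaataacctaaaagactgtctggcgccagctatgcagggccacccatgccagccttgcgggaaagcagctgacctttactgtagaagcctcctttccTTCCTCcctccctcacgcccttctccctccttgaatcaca
Aif1: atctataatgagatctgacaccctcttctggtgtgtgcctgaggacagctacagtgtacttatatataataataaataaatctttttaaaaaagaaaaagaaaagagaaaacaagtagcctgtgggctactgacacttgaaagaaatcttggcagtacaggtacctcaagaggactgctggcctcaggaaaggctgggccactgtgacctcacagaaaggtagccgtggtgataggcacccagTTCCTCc
P2ry12 held 1 GGAAGT, whereas Trem2 and Aif1 each held 1 GAGGAA on the reverse strand, in Aif1 just before the start. Olfml3 held neither word. RefSeq promoters were at hand for 6 of the 9 genes, with 8 windows because Sall1 has 3 starts, and 5 of the 8 windows (62.5%) held at least 1 of these words, against 36.7% of 32851 promoter windows of the same length. In Sall1 only the window of the third start held one. The 12 other gene lists described below ran from 15.4% of windows (OPC markers) to 73.7% (monocytes and neutrophils). Other homeostatic microglia genes had 60.0%, so the share was not particular to the 9 genes. A match describes the letters only.

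Levels were compared per kilobase of the longest annotated transcript, as the mean over all libraries. By this length Csf1r was highest of the 9 at 27520 normalised reads per kb, followed by the short Tyrobp transcript at 26784 and P2ry12 at 11429. Tmem119, a transmembrane protein gene used as a microglial marker, stood at 5235 reads per kb, Siglech at 4570, Sall1 at 4293, Trem2 at 3840, Aif1 at 3764 and Olfml3 at 2719. All 9 lay above the median of tested genes, which was 368 reads per kb, and Csf1r ranked 86th of 20015 tested genes with a known length. On the same scale the OPC receptor gene Pdgfra had 2881 reads per kb, the proteoglycan gene Cspg4 had 1877 and the lineage factor genes Olig1, Olig2 and Sox10 had 22205, 9630 and 9847. The order depends on the length used: with all exons merged, Tyrobp at 23973 reads per kb stood above Csf1r at 22406, Siglech at 3108 stood below Trem2 at 3714, and Aif1 at 2150 was lowest, below Olfml3 at 2412. With the longest transcript 8 of the 9 microglia genes stood above Pdgfra per length in cells sorted as OPCs. With all exons merged 9 did, where Pdgfra had 1964 reads per kb. By the longest transcript the median of 15 OPC markers was 3170 reads per kb, above Pdgfra, beside 4570 for the 9 genes. Ptprz1 at 43665 reads per kb was highest of these markers. The table gives no spread for a level, so neighbours in this order could not be tested.

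**Figure D1:**
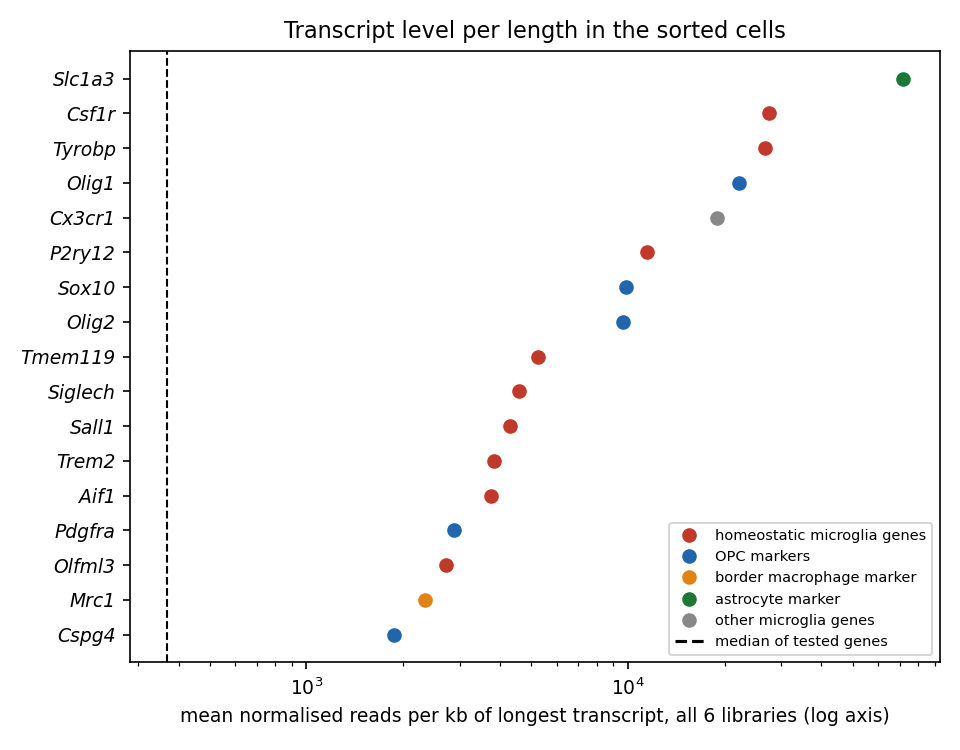
Mean normalised reads per kb of the longest transcript over all 6 libraries (horizontal log axis) for the 9 homeostatic microglia genes and for markers of other cells, with the median of tested genes as a dashed line. Csf1r at 27520 and Tyrobp at 26784 reads per kb lie above Olig1 at 22205, and Olfml3 at 2719 lies just under Pdgfra at 2881.

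Of the receptor genes, P2ry12 fell and Csf1r, Trem2 and Siglech did not pass. P2ry12 (ENSMUSG00000036353, chr3:59216272-59262871, minus strand, mm10) averaged 26790 normalised reads over the libraries in the authors' deposited table. It fell by 0.59 ± 0.18 on the moderated log2 scale (SE; 95% interval -0.94 to -0.24; adjusted p = 0.014), which puts Ep400 cko at 66.5% of ctrl in the authors' deposited table. Csf1r, with the largest mean of the 9, averaged 129373 normalised reads over the libraries in the authors' deposited table. Its log2 fold change was -0.32 ± 0.19 (SE; 95% interval -0.70 to 0.05), and it did not pass (adjusted p = 0.28) in the authors' deposited table. Its interval holds 0 and overlaps that of P2ry12.

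Trem2, the lipid-sensing receptor, and its adaptor Tyrobp had almost the same value. The authors' deposited table gave means of 18370 normalised reads for Trem2 and 15990 for Tyrobp, with log2 fold changes of -0.46 ± 0.20 for each (SE; adjusted p = 0.12 for each). Siglech, a sialic acid-binding lectin that also pairs with TYROBP, had a mean of 10516 normalised reads and stood at -0.29 ± 0.17 (SE; adjusted p = 0.27) in the authors' deposited table. Tmem119 had a mean of 11737 and stood at -0.29 ± 0.19 (SE; adjusted p = 0.34) in the authors' deposited table. Aif1, which encodes the actin-bundling protein IBA1, averaged 3293 normalised reads, the fewest of the 9, and stood at -0.45 ± 0.20 (SE; adjusted p = 0.13) in the authors' deposited table. In mm10, Trem2 lies at chr17:48346401-48354147 (plus strand), Tyrobp at chr7:30413760-30417585 (plus strand), Siglech at chr7:55768178-55778925 (plus strand), Tmem119 at chr5:113793729-113800516 (minus strand) and Aif1 at chr17:35170991-35176068 (minus strand). For Trem2, Tyrobp and Aif1 the unadjusted 95% interval lay below 0 and the gene did not pass after adjustment over all tested genes.

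Olfml3 and Sall1 stood apart from the other 7 by their sign. Olfml3 (ENSMUSG00000027848, chr3:103722222-103738001, minus strand, mm10), which encodes a secreted glycoprotein, averaged 14858 normalised reads over the libraries in the authors' deposited table. It rose by 0.55 ± 0.18 on the moderated log2 scale (SE; 95% interval 0.20 to 0.90; adjusted p = 0.022), which puts Ep400 cko at 146.7% of ctrl in the authors' deposited table. Sall1 (chr8:89027235-89044162, minus strand, mm10), a zinc finger factor known from microglia and also from neural progenitors, had a mean of 22605 normalised reads and stood at 0.15 ± 0.17 (SE; 95% interval -0.19 to 0.49; adjusted p = 0.65) in the authors' deposited table. Of the 36 pairs of the 9 genes, 8 had 95% intervals that did not overlap. They were Olfml3 against each of P2ry12, Trem2, Tyrobp, Aif1, Csf1r, Siglech and Tmem119, and Sall1 against P2ry12. The genes were measured in the same libraries, so their errors are not independent, and these gaps were not tested. Standard errors ran from 0.17 to 0.20 for the 9 genes and had a median of 0.23 over all tested genes.

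**Figure D2:**
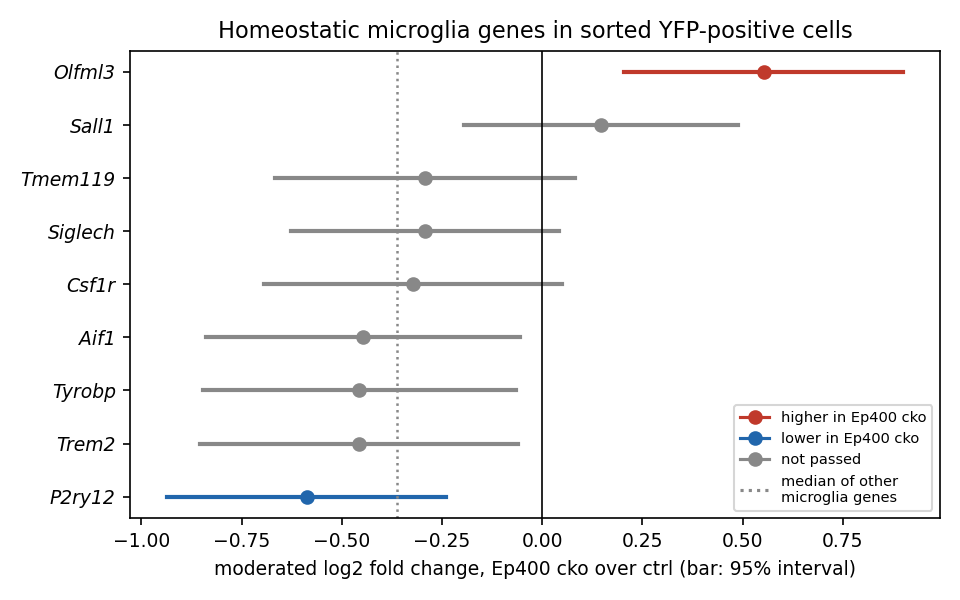
Moderated log2 fold change, Ep400 cko over ctrl, with its 95% interval for each of the 9 genes, coloured by the result of the test. P2ry12 at -0.59 is the gene that passed as lower and Olfml3 at 0.55 the gene that passed as higher, and the dotted line is the median of the other homeostatic microglia genes at -0.36.

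P2ry12 lies within a larger gene, Med12l, which is read from the opposite strand (chr3:59005825-59318682, plus strand, mm10) and encodes a Mediator subunit. Med12l rose by 0.91 ± 0.21 in the authors' deposited table (SE, log2; adjusted p = 0.00078), or by 0.63 (adjusted p = 0.032) after removal of length and GC trends. Med12l also holds other receptor genes on the minus strand. P2ry13, another ADP receptor gene of microglia, fell by 0.60 ± 0.17 (SE, log2; adjusted p = 0.0093) and P2ry14, a receptor gene for UDP-sugars, by 0.69 ± 0.24 (adjusted p = 0.039) in the authors' deposited table. Gpr171 stood at -0.24 ± 0.37 (SE; adjusted p = 0.73) in the authors' deposited table, where it averaged 7.8 normalised reads. P2ry12, P2ry13 and P2ry14 were thus lower in Ep400 cko, P2ry14 not with no filter on low means (adjusted p = 0.055), while the gene that encloses them on the other strand was higher. The library kit was stranded, per the labels, and whether the counting used strand is not stated in these sources. Overlap was judged from gene starts and ends, and overlap of exons was not examined. Whether reads of a gene were counted for its overlapping gene was not tested. Csf1r likewise overlaps Hmgxb3, which stood at -0.31 ± 0.22 (SE; adjusted p = 0.38) in the authors' deposited table. A microRNA gene within Csf1r had too low a mean to be tested, and the annotation gives no overlapping gene for the other 7 genes.

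**Figure D3:**
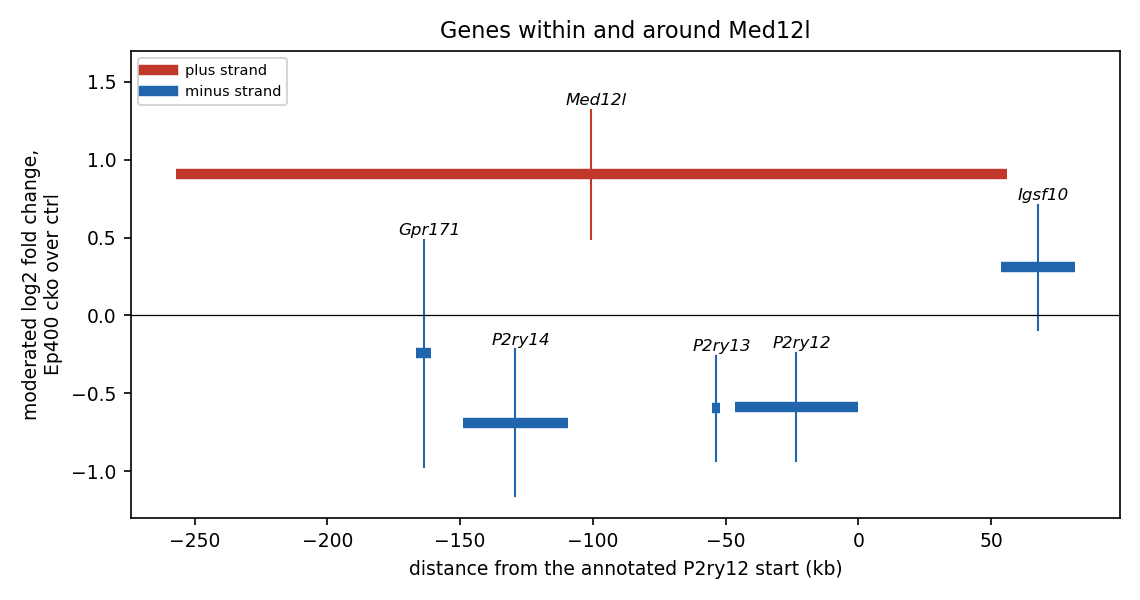
Moderated log2 fold change, Ep400 cko over ctrl (vertical axis, thin bars for the 95% interval), of Med12l and tested genes within or overlapping it, drawn as bars along their distance in kb from the annotated P2ry12 start and coloured by strand. Med12l lies at 0.91 and P2ry12, P2ry13 and P2ry14 lie at -0.59, -0.60 and -0.69.

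Other genes of homeostatic microglia were described from a list of 32, all tested. Of these 8 fell, 1 rose and 23 did not pass. Their median was -0.36, close to the -0.32 of the 9 genes, and 29 of the 32 fold changes were negative. The fractalkine receptor gene Cx3cr1 fell by 0.61 ± 0.19 (SE, log2; adjusted p = 0.015) in the authors' deposited table. Rhob, which encodes a small GTPase and is expressed by many cell types, fell by 0.63 ± 0.14 (adjusted p = 0.00037) in the authors' deposited table. Gpr183, an oxysterol receptor gene, fell by 0.81 ± 0.21 (adjusted p = 0.0030) in the authors' deposited table. Adgrg1, an adhesion receptor gene that neural progenitors and astrocytes also express, rose by 0.92 ± 0.26 (adjusted p = 0.0080) in the authors' deposited table. Cst3, the cystatin C gene and most abundant of the list, stood at 0.14 ± 0.22 (adjusted p = 0.75) and Ptprc, the CD45 gene of all leukocytes, at -0.02 ± 0.18 (adjusted p = 0.95) in the authors' deposited table. With length and GC trends removed 5 of the 32 fell.

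The transcription factors of microglia and myeloid cells lay mostly below 0. Of 18 factors 2 fell, 1 rose and 15 did not pass, with a median of -0.31. Spi1, which encodes PU.1, stood at -0.43 ± 0.19 (SE, log2; adjusted p = 0.13) and Irf8 at -0.37 ± 0.18 (adjusted p = 0.18) in the authors' deposited table. Klf2 fell by 0.67 ± 0.15 (adjusted p = 0.00039) and Cebpb by 0.79 ± 0.20 (adjusted p = 0.0029) in the authors' deposited table, and endothelial and other cells also make both. Etv5, an ETS factor gene of the FGF response in neural progenitors and glia, rose by 0.70 ± 0.24 (adjusted p = 0.032) in the authors' deposited table. Egr1, an immediate early gene and the most abundant of these factors, stood at -0.25 ± 0.24 (adjusted p = 0.56) in the authors' deposited table.

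Of the CSF1R ligand genes, Il34 fell and Csf1 did not pass, and the difference between them was not tested. Il34, which neurons are known to make, fell by 1.15 ± 0.24 (SE, log2; 95% interval -1.61 to -0.68; adjusted p = 9.2e-05) and averaged 2080 normalised reads over all libraries in the authors' deposited table. Csf1, which glia are known to make, had a mean of 10764 and stood at -0.05 ± 0.21 (95% interval -0.47 to 0.36; adjusted p = 0.91) in the authors' deposited table. Of 19 genes of CSF1R ligands and of the TGF-beta and TAM receptor niche, 2 rose, 4 fell and 13 did not pass, with a median of -0.05. Itgb8, an integrin subunit that activates TGF-beta, rose by 1.02 ± 0.25 (adjusted p = 0.0017) in the authors' deposited table. Tgfb3 fell by 0.74 ± 0.20 (adjusted p = 0.0040) and Lrrc32, a docking protein gene for latent TGF-beta, by 0.75 ± 0.24 (adjusted p = 0.019) in the authors' deposited table. Tgfb1, the ligand most tied to microglial identity, stood at -0.50 ± 0.19 (adjusted p = 0.0645) and its receptor gene Tgfbr1 at -0.03 ± 0.18 (adjusted p = 0.95) in the authors' deposited table. Gas6, a ligand of the TAM receptors and the most abundant of these genes, fell by 0.49 ± 0.16 (adjusted p = 0.026, and 0.074 with length and GC trends removed) in the authors' deposited table.

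Partner receptors of TYROBP and the kinases below it gave no single call. None of 23 tested genes of this list, which holds Trem2 and Siglech, passed in the authors' DESeq2 comparison. Of the 23 genes 10 had an unadjusted p under 0.05, as had 5149 of all 20101 tested genes. In this list 21 fold changes were negative (median -0.33). Syk, the kinase recruited by the ITAM, stood at -0.20 ± 0.18 (SE, log2; adjusted p = 0.54) and Plcg2, a phospholipase downstream of TREM2, at -0.68 ± 0.26 (adjusted p = 0.066) in the authors' deposited table. Sh2b3 and Lat2 stood at -0.50 ± 0.19 and -0.46 ± 0.17 (adjusted p = 0.052 for each) in the authors' deposited table and passed as lower once genes whose mean was under 80 were left out (adjusted p = 0.044 for each). Hcst, the gene of the related adaptor DAP10, lies end to end with Tyrobp on the opposite strand, with no overlap, and averaged 75.5 normalised reads, beside 15990 for Tyrobp, in the authors' deposited table. Its log2 fold change was -0.32 ± 0.32 (adjusted p = 0.58) in the authors' deposited table.

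Genes that microglia of axon tracts and damaged tissue are known to raise moved in both directions. Of 26 such genes 3 rose, 6 fell and 17 did not pass, with a median of -0.07. Spp1, the osteopontin gene, rose by 0.99 ± 0.25 (SE, log2; adjusted p = 0.0020), Fabp5 by 1.00 ± 0.24 (adjusted p = 0.0010) and Apoe by 0.76 ± 0.20 (adjusted p = 0.0046) in the authors' deposited table, and astrocytes express Fabp5 and Apoe as well. The chemokine genes Ccl3 and Ccl4 fell by 0.94 ± 0.18 (adjusted p = 2.3e-05) and 1.04 ± 0.24 (adjusted p = 0.00078) in the authors' deposited table. Which cells of the sorted population gave these changes, that of Spp1 included, was not tested.

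**Figure D4:**
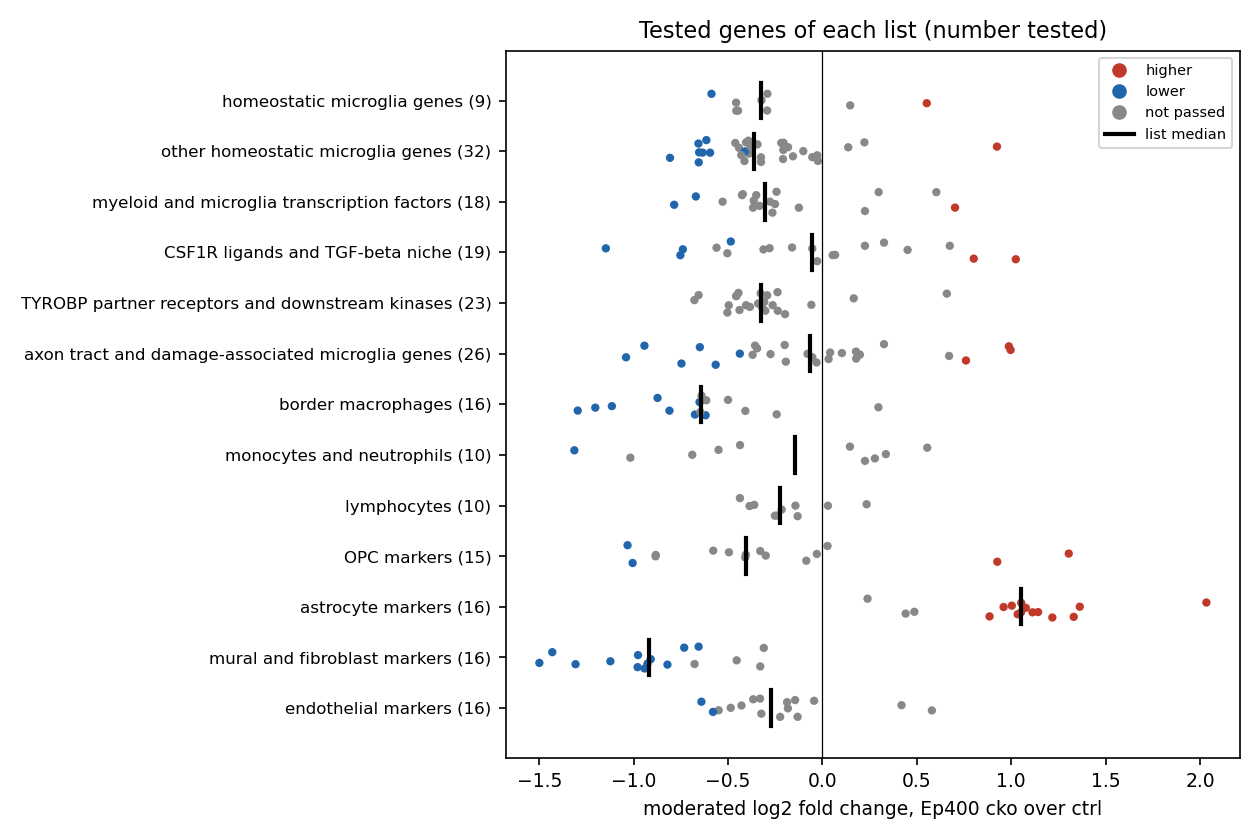
Moderated log2 fold change, Ep400 cko over ctrl, of every tested gene of 13 lists, 1 point a gene, coloured by the result of the test, with the list median as a black bar. Medians lie at -0.32 for the homeostatic microglia genes, -0.64 for border macrophages, 1.05 for astrocytes and -0.92 for mural cells and fibroblasts.

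Some marker lists of other cells held a larger share of genes past the test than the 12.2% of all tested genes. The share was 56.25% for border macrophages, 81.25% for astrocytes and 75.0% for mural cells and fibroblasts. It was 26.7% for OPC markers and 12.5% for endothelial markers. Border macrophages, which line the meninges and vessels of the brain and share Csf1r, Tyrobp and Aif1 with microglia, had 9 of 16 markers lower, none higher and a median of -0.64. The folate receptor gene Folr2 fell by 1.30 ± 0.26 (SE, log2; adjusted p = 6.0e-05) and the mannose receptor gene Mrc1 by 0.64 ± 0.20 (adjusted p = 0.016) in the authors' deposited table, whereas the scavenger receptor gene Stab1, the most abundant, stood at -0.24 ± 0.19 (adjusted p = 0.45). With length and GC trends removed 5 of these 16 were lower. Per length the border macrophage markers had a median of 232 reads per kb, beside 4570 for the 9 microglia genes. Of 16 astrocyte markers 13 rose with a median of 1.05, and of 16 mural and fibroblast markers 12 fell with a median of -0.92. Endothelial markers had 2 of 16 lower, or 0 with length and GC trends removed. Their median was -0.27, and 14 fold changes were negative. OPC markers had 2 higher and 2 lower of 15, with a median of -0.41 and 12 negative fold changes. None of the 9 microglia genes and none of the defining markers of these lists had a mean of 0. The part of these cell types in the values of P2ry12, Olfml3 and the other 7 genes was not tested.

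Reads per library could be recovered where the mean was at most 40, which covers none of the 9 genes and does cover rare leukocytes. Within each group the letters a, b and c name the libraries, which cannot be tied to replicate numbers. Trem1, the neutrophil and monocyte relative of Trem2, had 11, 20 and 5 reads in Ep400 cko libraries a, b and c, against 7, 17 and 28 in ctrl libraries a, b and c. The groups overlapped. Cd209a, a lectin gene of some macrophages and dendritic cells, had 22, 61 and 26 reads in Ep400 cko libraries and 36, 28 and 21 in ctrl libraries, again with overlap. S100a8, a neutrophil gene, had 7, 12 and 8 reads in Ep400 cko libraries and 12, 0 and 0 in ctrl libraries. Its partner S100a9 had 28, 27 and 20 reads in Ep400 cko libraries and 19, 0 and 0 in ctrl libraries. Reads of this pair were present in every Ep400 cko library and in 1 ctrl library. The scaled reads of the groups did not overlap for S100a9 and overlapped for S100a8, and neither gene passed (adjusted p = 0.36 for S100a9 and 0.66 for S100a8 in the authors' deposited table). Cd177, another neutrophil gene, lay the other way, with 21, 30 and 19 reads in Ep400 cko libraries and 28, 45 and 73 in ctrl libraries, and its groups overlapped. Among the 35 genes whose reads were recovered, scaled reads also did not overlap for Camp and Mpo, higher in Ep400 cko, and for Cd300lg and P2ry10, lower. Groups without overlap were thus seen in both directions and do not set S100a9 apart. Of the 10 tested monocyte and neutrophil genes 5 had negative and 5 positive fold changes, with a median of -0.15.

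Summed over 13 low monocyte and neutrophil genes, the scaled reads were 130 ± 54.8 in Ep400 cko libraries and 94.8 ± 33.6 in ctrl libraries (SD, n = 3 each; exact permutation test, two-sided p = 0.4). Over 9 low lymphocyte genes they were 69.1 ± 36.0 in Ep400 cko libraries and 79.2 ± 31.5 in ctrl libraries (SD, n = 3 each; exact permutation test, two-sided p = 0.6). The smallest p that 3 against 3 libraries allow is 0.1. Of the unscaled reads of the 13 monocyte and neutrophil genes, Cd177 alone gave 28 of 123, 45 of 56 and 73 of 115 in ctrl libraries a, b and c. In Ep400 cko libraries Cd177 gave 21 of 133, 30 of 178 and 19 of 70. In ctrl libraries this sum thus rests in large part on 1 gene, and the sum without Cd177 was not tested. In the authors' comparison, 1 of 10 tested monocyte and neutrophil genes passed, Plac8, which fell by 1.31 ± 0.31 (SE, log2; adjusted p = 0.0011) in the authors' deposited table. None of 10 tested lymphocyte genes passed with DESeq2, and 0 had an unadjusted p under 0.05.

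**Figure D5:**
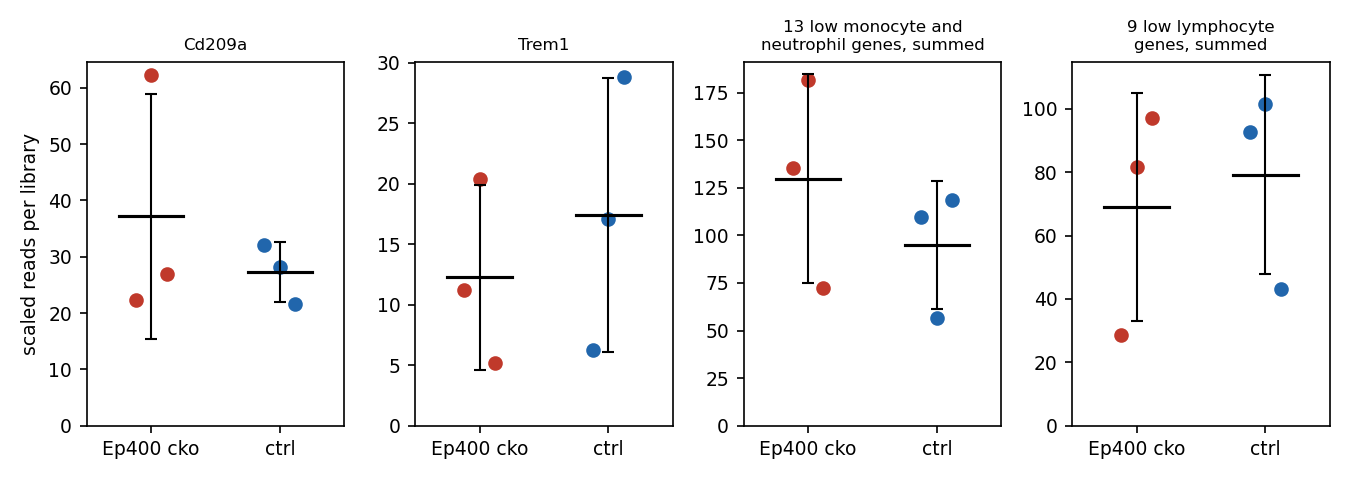
Reads per library, scaled by each library's size factor, for Cd209a, Trem1 and 2 summed lists of rare leukocyte genes, with 1 point a library, a line for the mean and a bar for the SD (n = 3 each). The 3 Ep400 cko libraries and the 3 ctrl libraries overlap in every panel.

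The table as a whole had 2462 genes past the test. Over all genes the means sum to 80407433 normalised reads, the depth of an average library after scaling, and scale factors of the 6 libraries ran from 0.967 to 1.122. Ep400 stood at 0.01 ± 0.17 (SE, log2; adjusted p = 0.975) in the authors' deposited table. A count over the whole gene does not resolve a deleted exon, so it checks neither the deletion nor the direction, which the file's name states.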

How the data were processed

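RNA of 3 Ep400 cko and 3 ctrl samples was sequenced from stranded libraries, per the labels' protocols. The submitters' processing notes name mm10, STAR 2.5.1, HTSeq and DESeq2, with no order. The authors deposited 1 table of their comparison with 0 columns of values per sample. Its signal is a mean normalised read count over all libraries, per the file headers called raw counts but scaled by its values. Moderated log2 fold changes with standard errors were deposited, the deposited score is the Wald statistic, and the deposited p-value and Benjamini-Hochberg adjusted p-value follow from it (recomputed with a largest difference of 1.9e-15). Genes with a mean under 6.1 had no adjusted p. A count model had been planned in case counts per sample were present, and the authors' comparison was used in its place.

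Computed here with Python 3.11.15, numpy 2.4.6, pandas 2.3.3 and scipy 1.17.1 were the counts per list, 95% intervals (normal, from the SE), levels per kb (GENCODE M21, the mm10 assembly), motif counts and alternatives. These were no filter on low means, a mean of at least 80, centring, length and GC trends removed by cubic splines (tested on simulated data), and adjusted p thresholds of 0.01 and 0.1. Where 2 gene IDs share a symbol (1 list gene), the row with the higher mean was used. Whole reads per library were solved from means up to 40 within 2e-13, using the worth of 1 read in each library seen in genes with 1 read in all; 35 of 35 genes had exactly 1 solution and 0 shifted means had any. Genes with reads in a single library gave that library's group, by whether the authors placed them higher or lower in Ep400 cko.

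The 9 genes and the 12 other lists were chosen with earlier results of these data known. The genes named are the 9, up to 4 passing genes of a list by adjusted p, its most abundant gene and fixed names, of which some are not reported here. The other genes named, the gene families and the motifs were chosen after their values were seen. Likeness of pattern to other genes needs values per sample and was not measured.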

Additional observations from a re-analysis of the deposited data

How the results depend on the processing

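The single calls for P2ry12 (lower) and Olfml3 (higher) held with no filter on low means, with a mean of at least 80 and with length and GC trends removed. They also held with centring, which took out a median of only -0.0025 and so could change little. At an adjusted p under 0.1 both calls were bound to hold, because both genes passed at 0.05. P2ry12 ranged from -0.63 to -0.59 (adjusted p = 0.0088 to 0.020) and Olfml3 from 0.51 to 0.55 (adjusted p = 0.018 to 0.040). At an adjusted p under 0.01, 0 of the 9 genes were higher and 0 lower in the authors' DESeq2 comparison. Of the 9 genes 5 had an unadjusted p under 0.05, as had 5149 of all 20101 tested genes. The other 7 genes passed under none of these settings. Their widest range was that of Tyrobp, from -0.46 to -0.34, while Trem2, with almost the same deposited value, ranged from -0.49 to -0.45. Over the 226 other list genes, 46 were lower and 22 higher, and 23 were lower at an adjusted p under 0.01. Of all tested genes 4.61% were lower and 7.64% higher at an adjusted p under 0.05. The 226 genes pool unlike cell types: mural and fibroblast markers gave 12 of the lower calls and astrocyte markers 13 of the higher ones. Border macrophage markers called lower ranged from 3 to 10 and other microglia genes from 4 to 13 over all settings, while 13 astrocyte markers were higher in each. With all exons merged in place of the longest transcript, Aif1 stood at 2150 reads per kb beside 3764. No paired analysis was possible because the table holds no values per sample, and leaving out replicates was not run for the same reason. Reads per library were sought up to a mean of 40, a setting of the search. Reads without scaling, chosen after seeing the data, left the 2 summed leukocyte lists in their direction.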

Other observations

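Relatives of the 9 genes, chosen after their values were seen, give further values. Among 7 tested P2Y nucleotide receptor genes 4 fell, P2ry12, P2ry13, P2ry14 and P2ry2, the last by 0.61 ± 0.21 in the authors' deposited table (SE, log2; adjusted p = 0.041). P2ry2 did not pass when every gene with a p was kept (adjusted p = 0.058) or after removal of length and GC trends (adjusted p = 0.092). P2ry6, the UDP receptor gene of phagocytosis, stood at -0.39 ± 0.18 (adjusted p = 0.13) in the authors' deposited table. Among the spalt-like factors, Sall2 rose by 0.79 ± 0.23 (adjusted p = 0.0089) and Sall3 stood at 0.60 ± 0.24 (adjusted p = 0.083) in the authors' deposited table, beside 0.15 for Sall1. Of 4 olfactomedin-like genes Olfml3 and Olfml2a rose, Olfml2a by 0.56 ± 0.19 (adjusted p = 0.027, and 0.057 with length and GC trends removed) in the authors' deposited table, whereas Olfml2b stood at -0.44 ± 0.19 (adjusted p = 0.10).

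Of 8 tested Siglec genes, 1 fell, Siglecg, by 0.82 ± 0.23 (SE, log2; adjusted p = 0.0061) in the authors' deposited table, and all 8 values were negative. The phosphatidylserine receptor gene Cd300lf fell by 1.18 ± 0.23 (adjusted p = 3.2e-05) in the authors' deposited table, 1 of 6 tested CD300 genes to pass. Aif1l, the paralogue of Aif1, stood at 0.10 ± 0.21 (adjusted p = 0.81) in the authors' deposited table.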
